A study of Homo sapiens with 3 samples.

Results

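The genes described here encode the MHC class I pathway: HLA-B, HLA-C, HLA-E and HLA-F, B2M, TAP1, PSMB8 and PSMB9, with the noncoding gene PSMB8-AS1. They were taken by gene name from the count table, where all 9 were found among 26485 genes. The list was chosen by the counts of these genes in the 3 libraries described here, so the values describe the genes and are not a test of them. The study knocked down PRMT6, an enzyme that methylates arginines of histones and of further proteins, in HEC1B, an established human endometrial cancer cell line. The first knockdown library was made with the siRNA siPRMT6-2 and carries the genotype label PRMT6 knockdown, the second was made with siPRMT6-1 and carries the same label, and the control library was made with siNC and is labelled WT. All were harvested at 48 h, and each siRNA and the control has 1 library, so neither siRNA nor the control was repeated. Nothing in the labels says whether the libraries came from separate cultures.

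MHC class I molecules display peptides from inside the cell to cytotoxic T cells. A heavy chain, such as the polymorphic HLA-B and HLA-C or the less variable HLA-E and HLA-F, pairs with the invariant light chain beta-2 microglobulin, encoded by B2M. Peptides are cut by the proteasome, in which PSMB8 and PSMB9 are the inducible catalytic subunits of the immunoproteasome form, carried into the endoplasmic reticulum by the TAP1 and TAP2 transporter, and loaded there. Interferons are known to induce most of these genes, through interferon-stimulated response elements (ISRE) and gamma-activated sites (GAS) in their promoters, while NF-kappaB sites and the transactivator NLRC5 contribute to the heavy chain genes and B2M.

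Promoter windows from 250 bases before to 50 bases after the start were found in RefSeq (GRCh38.p14) for 8 of the 9 genes, all but HLA-E. TAP1 and PSMB8 have 2 windows each, and only the 1 nearest to the gene's start in the count table was searched. The windows of HLA-B, B2M, TAP1, PSMB9 and PSMB8-AS1 are shown because these genes span the heavy chain, the light chain, the transporter and the immunoproteasome, and because TAP1 and PSMB9 start head to head. They lie at chr6:31357130-31357429 on the minus strand, chr15:44711267-44711566 on the plus strand, chr6:32853655-32853954 on the minus strand, chr6:32853942-32854241 on the plus strand and chr6:32843836-32844135 on the plus strand, in that order. Capitals mark matches to the ISRE (GAAA, any 2 bases, GAAA), to the GAS letters TTCNNNGAA or to the kappaB motif, on either strand.
HLA-B: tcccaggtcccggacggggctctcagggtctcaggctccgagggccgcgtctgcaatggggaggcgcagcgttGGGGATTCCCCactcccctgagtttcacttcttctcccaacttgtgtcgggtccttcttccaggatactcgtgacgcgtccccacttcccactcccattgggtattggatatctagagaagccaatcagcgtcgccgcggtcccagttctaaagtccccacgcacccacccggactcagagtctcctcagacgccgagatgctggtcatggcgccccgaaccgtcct
B2M: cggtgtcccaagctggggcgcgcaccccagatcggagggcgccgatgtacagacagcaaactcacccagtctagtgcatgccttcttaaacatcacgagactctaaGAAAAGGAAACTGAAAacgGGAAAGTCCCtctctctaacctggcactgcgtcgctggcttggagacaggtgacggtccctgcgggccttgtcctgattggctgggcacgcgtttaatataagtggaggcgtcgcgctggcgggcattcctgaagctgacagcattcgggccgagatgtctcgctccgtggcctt
TAP1: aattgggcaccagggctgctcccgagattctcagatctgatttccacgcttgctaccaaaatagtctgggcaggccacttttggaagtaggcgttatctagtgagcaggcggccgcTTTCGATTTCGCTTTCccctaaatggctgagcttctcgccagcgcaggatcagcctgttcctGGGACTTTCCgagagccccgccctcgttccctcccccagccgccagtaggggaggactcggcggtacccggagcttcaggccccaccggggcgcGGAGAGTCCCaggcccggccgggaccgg
PSMB9: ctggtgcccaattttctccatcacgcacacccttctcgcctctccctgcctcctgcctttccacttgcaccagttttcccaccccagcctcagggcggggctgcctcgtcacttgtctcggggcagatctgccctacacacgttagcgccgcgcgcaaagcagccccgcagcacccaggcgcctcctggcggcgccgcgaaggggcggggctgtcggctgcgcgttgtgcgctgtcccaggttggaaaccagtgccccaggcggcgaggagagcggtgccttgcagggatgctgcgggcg
PSMB8-AS1: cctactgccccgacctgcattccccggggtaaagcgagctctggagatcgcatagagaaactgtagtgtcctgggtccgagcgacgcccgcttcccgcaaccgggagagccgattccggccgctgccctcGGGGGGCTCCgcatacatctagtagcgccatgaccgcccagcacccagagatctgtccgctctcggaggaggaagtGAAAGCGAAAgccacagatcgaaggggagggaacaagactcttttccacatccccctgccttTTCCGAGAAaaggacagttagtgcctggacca

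An ISRE match was present in 4 of the 8 windows, those of HLA-F, B2M, TAP1 and PSMB8-AS1, and in 3.57% of all 35116 promoter windows. The B2M window held 2 overlapping matches, GAAAAGGAAA and GAAACTGAAA, whose first bases lie at -144 and -138 from the start. The TAP1 window also held 2, read on the other strand as TTTCGATTTC at -134 and TTTCGCTTTC at -128. A kappaB match was found in 5 of the 8 windows (HLA-B, HLA-C, B2M, TAP1 and PSMB8-AS1), and in 11.3% of all windows. In HLA-B 2 overlapping kappaB matches began at -177 and -176. GAS letters were found in the PSMB8-AS1 window alone among the 8, and in 7.66% of all windows. The letters CCAAT, matched in both directions, were in 6 of the 8 windows and in 34.6% of all windows, GGGCGG was in 5 of the 8 and in 45.0%, and the cyclic AMP response letters TGACGTCA were in 0 of the 8 and in 1.85%. The RefSeq starts of TAP1 and PSMB9 are 488 bases apart and point away from each other, and their windows share 13 bases. The PSMB9, PSMB8, HLA-C and HLA-B windows held no match to these exact ISRE letters. That does not show that an ISRE is absent, since looser forms and bases outside the windows were not searched. The ISRE matches of TAP1 lie between the RefSeq starts of TAP1 and PSMB9, but outside the PSMB9 window. In the gene models of the count table these starts are 190 bases apart, and the same matches lie within TAP1. All matches given here describe letters in a window and do not show binding.

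The libraries held 362080 counts for siPRMT6-2, 381628 for siPRMT6-1 and 410916 for siNC. PRMT6 itself had 7 counts with siPRMT6-2 and 4 with siPRMT6-1, against 25 with siNC. Levels are given as CPM, counts scaled by TMM library size. A gene at 0 was set to a floor of 3 counts per library, which is 9.09, 8.09 and 7.78 CPM in the same order of libraries. Intervals at 95% are exact Poisson ones around single counts and exact binomial ones around ratios and shares. They cover counting error only. Of 7 epithelial markers, KRT8 had 770, 681 and 1329 counts and KRT18 had 95, 85 and 129 in siPRMT6-2, siPRMT6-1 and siNC, EPCAM and CLDN4 had 6 counts or fewer in each library, and KRT19, CDH1 and ESRP1 were at 0 in all 3.

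Which strand the counts come from was not tested, and in most antisense-named pairs the antisense gene had more counts than its partner. The libraries came from a strand-preserving kit and were counted with strand setting 1, per the labels' protocols and the file headers. In siNC the gene VIM-AS1 had 12493 counts and VIM, an abundant intermediate filament gene on the opposite strand, had 312. Over 142 antisense genes set beside the genes they are named for, the antisense gene was the larger in 118 cases in siNC. It was the larger in 120 cases in siPRMT6-2 and in 120 in siPRMT6-1. Among the 9 genes, HLA-F shares 257 exon bases with HLA-F-AS1 on the opposite strand, TAP1 shares 456 with PSMB8-AS1, and PSMB8 shares 226 with PSMB8-AS1. HLA-B, HLA-C, HLA-E, B2M and PSMB9 share none with any gene of the table. GENCODE release 29, however, places pseudogenes opposite 397 exon bases of HLA-B and 458 of HLA-F. It also places a PSMB9 exon opposite 35 exon bases of PSMB8, and PSMB8-AS1 opposite 592. If reads were counted on the wrong strand throughout, the counts of genes without a partner would be affected too. Counts and levels given for a gene name may therefore not be those of its own transcript.

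The MHC class I and peptide loading genes had far more counts in the siPRMT6-2 library than in either of the others. Their summed counts were 1179 with siPRMT6-2 and 103 with siPRMT6-1, against 70 with siNC, which is 0.326% (interval 0.307 to 0.345%), 0.0270% (0.0220 to 0.0327%) and 0.0170% (0.0133 to 0.0215%) of the libraries. The ratio of summed CPM was 19.7 for siPRMT6-2 against siNC (15.5 to 25.4) and 12.9 for siPRMT6-2 against siPRMT6-1 (10.5 to 15.9). For siPRMT6-1 against siNC it was 1.53 (1.12 to 2.11). That last ratio rests on PSMB8-AS1, which held 844, 80 and 42 of the summed counts. Without it the other 8 genes had 335 counts with siPRMT6-2 and 23 with siPRMT6-1, against 28 with siNC. The ratio to siNC was then 14.0 with siPRMT6-2 (9.501 to 21.4) and 0.855 with siPRMT6-1 (0.470 to 1.54), so with siPRMT6-1 no difference was detectable. The 5 genes with no opposite-strand partner in the table had 244 and 16 counts, against 20 with siNC, and gave ratios of 14.3 (9.03 to 23.8) with siPRMT6-2 and 0.833 (0.403 to 1.69) with siPRMT6-1. In RNA of a whole culture, a change in the share of cells that express a gene and a change in RNA per cell cannot be told apart.

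**Figure D1:**
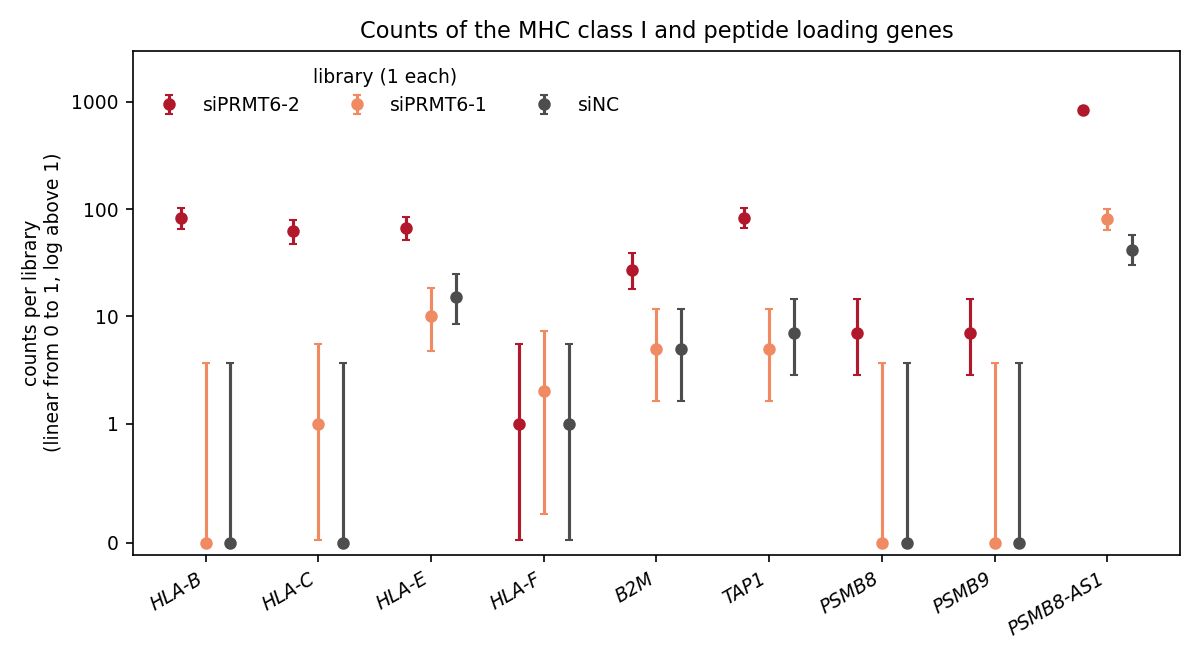
Counts per library of the 9 genes, with siPRMT6-2, siPRMT6-1 and siNC side by side (1 library each). Points are counts and bars are exact Poisson 95% intervals, on an axis that is linear from 0 to 1 and logarithmic above. The siPRMT6-2 point is the highest for every gene except HLA-F, and PSMB8-AS1 reaches 844 counts.

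The edgeR quasi-likelihood test of PRMT6 knockdown against siNC, over all genes with Benjamini-Hochberg adjustment, called 0 of 6803 genes, or 0%, and 0 of the 6 members that it tested. The lowest adjusted p was 1, and 186 genes had an unadjusted p under 0.05. DESeq2 called 0 genes, with 13 at an unadjusted p under 0.05, and edgeR's earlier form of the quasi-likelihood fit called 32, all higher in knockdown. That fit called 32 of the same 6803 genes. Of the 6 members tested, HLA-B, HLA-C, TAP1 and PSMB8-AS1 were among those 32, and HLA-E and B2M were not. The filter on low counts kept HLA-B, HLA-C, HLA-E, B2M, TAP1 and PSMB8-AS1 and left out HLA-F, PSMB8 and PSMB9. Of the 6, 4 had fewer than 10 counts in both siPRMT6-1 and siNC and were kept through siPRMT6-2 alone, so they were tested because they were high there.

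Set against siNC one library at a time, all 6 members kept by the filter were higher by at least 2-fold with siPRMT6-2, as were 8.16% of all tested genes, while 5.38% were lower by that much. All 6 were also higher by at least 4-fold, as were 1.68% of tested genes, and 0.367% were lower by at least 4-fold. With siPRMT6-1 none of the 6 had a fold of 2 in either direction, where 4.89% of tested genes were higher and 4.38% lower by that much, and 0.191% were higher and 0.132% lower by at least 4-fold. Set against siPRMT6-1, all 6 were higher by at least 2-fold with siPRMT6-2, as were 9.11% of tested genes, and 6.7% were lower. All 6 were higher by at least 4-fold in that contrast too, as were 1.81% of tested genes, and 0.544% were lower by that much. The median log2 fold change of the 6 was 3.96 with siPRMT6-2 and 0.02 with siPRMT6-1, and the medians of all tested genes were 0.01 and 0.01. Since the list was made with these contrasts known, nothing is read from the counts, and both siRNAs share the siNC library.

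**Figure D2:**
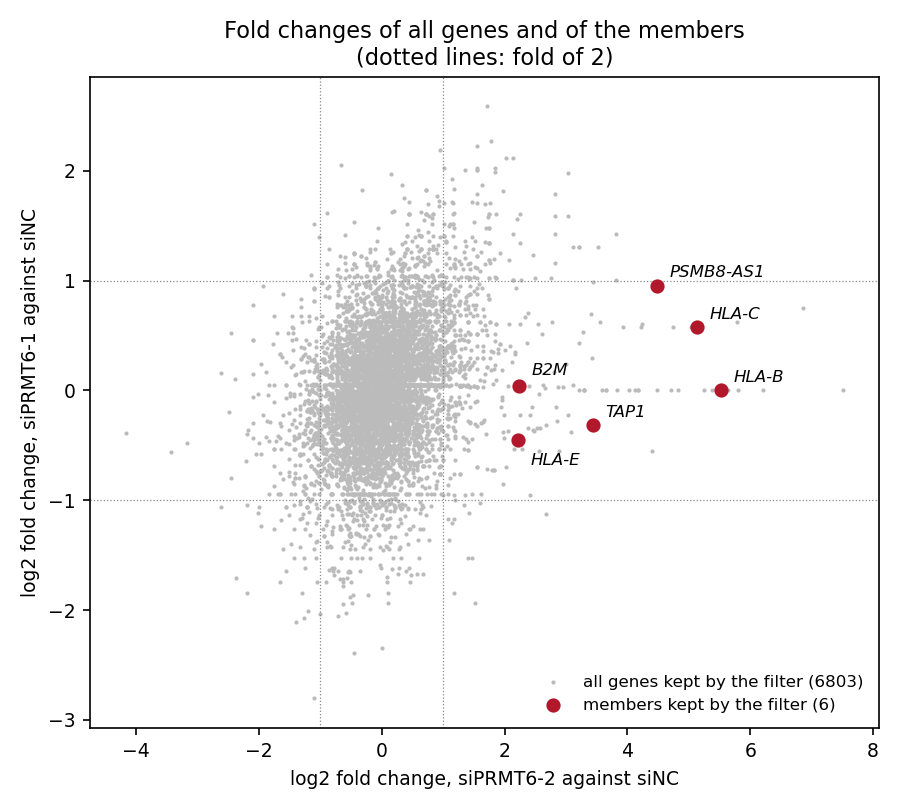
Log2 fold change against siNC of every gene kept by the filter (grey, 6803 genes), with siPRMT6-2 on the horizontal and siPRMT6-1 on the vertical axis, and the 6 members kept by the filter in red. Dotted lines mark a fold of 2. The members lie between 2.21 and 5.52 on the siPRMT6-2 axis and between -0.45 and 0.95 on the siPRMT6-1 axis.

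The heavy chain genes ranged in siPRMT6-2 between 82 counts for HLA-B and 1 count for HLA-F. HLA-B, a classical heavy chain gene (hg38 chromosome 6, 31353872 to 31357212, minus strand), had 82 counts with siPRMT6-2 (interval 65.2 to 102) and 0 with siPRMT6-1, against 0 with siNC. Set against the floor of 3 counts, HLA-B was at least 32.0-fold higher with siPRMT6-2 than with siNC, and at least 30.7-fold higher than with siPRMT6-1. These floors take the 82 counts as exact, and with the counting error of both libraries the 95% lower limits of the ratios were 25.4 and 24.4. The siPRMT6-2 library alone had counts of this gene. HLA-C, the other classical heavy chain gene here (31268749 to 31272136, minus strand), had 62 counts with siPRMT6-2 (47.5 to 79.5) and 1 with siPRMT6-1, against 0 with siNC. That is at least 24.2-fold higher with siPRMT6-2 than with siNC over the floor, with a 95% lower limit of 19.1, while the ratio of siPRMT6-2 to siPRMT6-1 was 69.6 with a wide interval of 12.05 to 2794. HLA-B and HLA-C therefore showed the same arrangement, with siPRMT6-2 high and the other libraries at or next to 0.

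HLA-E, which presents leader peptides of other class I chains to natural killer cell receptors (30489406 to 30494205, plus strand), was detected in every library. It had 66 counts with siPRMT6-2 (51.0 to 84.0) and 10 with siPRMT6-1 (4.80 to 18.4), against 15 with siNC (8.40 to 24.7). The count intervals of siPRMT6-1 and siNC overlap, and that of siPRMT6-2 lies above both. Its CPM ratio to siNC was 5.14 with siPRMT6-2 (2.90 to 9.70) and 0.694 with siPRMT6-1 (0.279 to 1.65). HLA-F, a nonclassical heavy chain gene (29723340 to 29727296, plus strand), had 1 count with siPRMT6-2 and 2 with siPRMT6-1, against 1 with siNC. At this depth no difference in HLA-F was detectable, with an interval of 0.0149 to 91.8 for the ratio of siPRMT6-2 to siNC. HLA-F is the only one of the 9 genes whose siPRMT6-2 count was not the highest.

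The light chain gene B2M (chromosome 15, 44711487 to 44718159, plus strand) is the only gene of the list outside the MHC region. It had 27 counts with siPRMT6-2 (17.8 to 39.3) and 5 with siPRMT6-1 (1.62 to 11.7), against 5 with siNC (1.62 to 11.7). Only the siPRMT6-2 interval lies apart. The ratio of CPM to siNC was 6.31 with siPRMT6-2 (2.40 to 21.0) and 1.04 with siPRMT6-1 (0.240 to 4.52).

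TAP1, the transporter subunit gene (chromosome 6, 32845209 to 32853971, minus strand), had 83 counts with siPRMT6-2 (66.1 to 103) and 5 with siPRMT6-1 (1.62 to 11.7), against 7 with siNC (2.81 to 14.4). The siPRMT6-2 count stands apart from the other two, whose intervals overlap. Its ratio to siNC was 13.9 with siPRMT6-2 (6.44 to 35.5) and 0.743 with siPRMT6-1 (0.186 to 2.72). PSMB8 (32840717 to 32844935, minus strand) and PSMB9 (32854161 to 32859851, plus strand), the immunoproteasome subunit genes on either side of TAP1, each had 7 counts with siPRMT6-2 (2.81 to 14.4) and 0 with siPRMT6-1, against 0 with siNC. Each was at least 2.73-fold higher with siPRMT6-2 than with siNC over the floor of 3 counts, and the 95% lower limit of the ratio was 1.68. Between them, PSMB9 has no opposite-strand partner in the table and PSMB8 has.

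PSMB8-AS1 (32844086 to 32846500, plus strand) held most of the counts of the list. It had 844 counts with siPRMT6-2 (788 to 903) and 80 with siPRMT6-1 (63.4 to 99.6), against 42 with siNC (30.3 to 56.8). No 2 of the 3 intervals overlap. Its ratio to siNC was 23.5 with siPRMT6-2 (17.2 to 32.8) and 1.98 with siPRMT6-1 (1.35 to 2.95), and that of siPRMT6-2 to siPRMT6-1 was 11.9 (9.41 to 15.1). It was the only one of the 9 genes whose interval lay above 1 with siPRMT6-1, where 5.89% of tested genes did so. With siPRMT6-2 the interval lay above 1 for 8 of the 9, including PSMB8 and PSMB9, which the filter left out, and for 9.73% of tested genes.

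PSMB8-AS1 has to be read beside its neighbours. Of its 1586 exon bases, 456 lie opposite the last exon of TAP1, 226 lie opposite PSMB8 and 904 lie opposite neither. PSMB8-AS1 had 10.2 times the counts of TAP1 with siPRMT6-2 and 16 times with siPRMT6-1, against 6 times with siNC. TAP1 thus held 8.95% of the counts of the pair with siPRMT6-2 (7.19 to 11.0%) and 5.88% with siPRMT6-1 (1.94 to 13.2%), against 14.3% with siNC (5.94 to 27.2%). These intervals overlap, so both genes of the pair were high together in siPRMT6-2 with no detectable shift between the strands. Whether the PSMB8-AS1 counts come from the noncoding RNA or from TAP1 and PSMB8 transcripts was not tested. Summed over both strands, TAP1 and PSMB8-AS1 had 927 counts with siPRMT6-2 and 85 with siPRMT6-1, against 49 with siNC, ratios to siNC of 22.1 (16.6 to 30.1) and 1.81 (1.26 to 2.62).

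**Figure D3:**
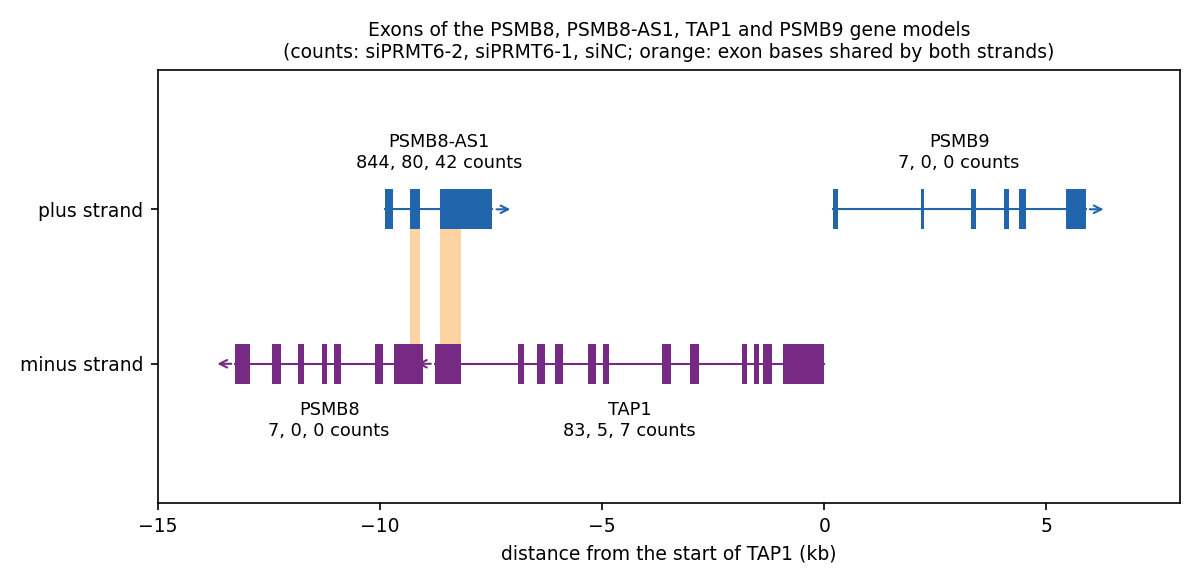
Exons of PSMB8, PSMB8-AS1, TAP1 and PSMB9 in the hg38 gene models of the count table, by strand, against distance in kb from the start of TAP1, with counts given in the order siPRMT6-2, siPRMT6-1 and siNC. Orange bands mark exon bases shared by both strands. PSMB8-AS1, with 844, 80 and 42 counts, lies opposite the ends of TAP1 and PSMB8 that face each other.

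Levels were compared between genes as CPM per kb of exon on the primary chromosomes. In siPRMT6-2 the order of these levels was PSMB8-AS1 at 1612, HLA-B at 158, HLA-C at 118, B2M at 82.9, TAP1 at 80.0, HLA-E at 75.1, PSMB9 at 20.2, PSMB8 at 11.96 and HLA-F at 1.78 CPM per kb. Only PSMB8-AS1 and HLA-B, and HLA-E and PSMB9, differed as neighbours in that order beyond counting error. From HLA-B to HLA-E no neighbour differed from the next. In siNC the order was PSMB8-AS1 at 68.6, HLA-E at 14.6, B2M at 13.1, TAP1 at 5.77 and HLA-F at 1.53 CPM per kb, with the other 4 genes at 0. In siNC only PSMB8-AS1 and HLA-E differed as neighbours beyond counting error, so the order of the coding genes there is not resolved. The heavy chain, TAP1 and PSMB genes are each annotated on 5 to 7 alternative copies of the MHC region besides chromosome 6, and B2M on 1 alternative contig. The counting command did not turn on reads that map to several places, heavy chain genes resemble each other closely, and the effect of both on these levels was not tested.

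The rest of the pathway, from a list also made with earlier results known, held 26 further genes, of which the filter kept 20. Of these 20, 8 were at least 2-fold higher with siPRMT6-2 and 0 were lower by that much, beside 8.16% and 5.38% of all tested genes. Among the 8, NLRC5, ERAP2 and IRF1 had fewer than 10 counts in both siPRMT6-1 and siNC. The filter kept them through siPRMT6-2 alone, where they were high, so the 8 are a description only. With siPRMT6-1, 1 was higher (IRF1) and 0 were lower, beside 4.89% and 4.38%. Their median log2 fold changes were 0.58 with siPRMT6-2 and -0.07 with siPRMT6-1. No member of the list passed the quasi-likelihood test.

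HLA-G, a nonclassical heavy chain gene, was at 0 in all 3 libraries. TAP2, the partner of TAP1, had 22, 8 and 11 counts in siPRMT6-2, siPRMT6-1 and siNC, and its ratio of 2.34 with siPRMT6-2 (1.09 to 5.34) was below that of TAP1, with intervals that do not overlap. TAPBP, which encodes the tapasin that bridges TAP and class I, had 346, 113 and 110 counts. Its ratio to siNC was 3.68 for siPRMT6-2 (2.96 to 4.60) and 1.07 for siPRMT6-1 (0.815 to 1.40).

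Peptide trimming and folding genes were split. ERAP2, an aminopeptidase gene, had 25 counts with siPRMT6-2 and 5 with siPRMT6-1, against 6 with siNC, a ratio to siNC of 4.87 with siPRMT6-2 (1.95 to 14.5). ERAP1, its relative, had 211, 156 and 194 counts and a ratio to siNC of 1.27 for siPRMT6-2 (1.04 to 1.55), and it shares exon bases with CAST on the opposite strand. The chaperone gene CALR had 297, 176 and 172 counts and a ratio to siNC of 2.02 for siPRMT6-2 (1.67 to 2.45). CANX, another chaperone gene, and PDIA3, a disulfide isomerase gene of the loading complex, had ratios of 1.03 (0.797 to 1.33) and 1.22 (0.794 to 1.88) with siPRMT6-2. PDIA3 shares exon bases with an opposite-strand gene. So within the loading complex TAPBP and CALR were higher with siPRMT6-2, and for CANX and PDIA3 no difference was detectable.

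Among proteasome genes, the immunoproteasome subunit PSMB10 had 30 counts with siPRMT6-2 and 30 with siPRMT6-1, against 18 with siNC. Unlike PSMB8 and PSMB9 it was detected in every library, with a ratio to siNC of 1.95 for siPRMT6-2 (1.05 to 3.71) and of 1.73 for siPRMT6-1 (0.936 to 3.30). The activator genes PSME1 and PSME2, whose products form the interferon-inducible proteasome cap, had ratios to siNC of 2.82 (1.40 to 6.08) and 3.16 (1.78 to 5.89) with siPRMT6-2. With siPRMT6-1 these were 1.13 (0.474 to 2.703) and 1.16 (0.572 to 2.38). PSME1 shares exon bases with an opposite-strand gene. The standard catalytic subunits, which the inducible ones replace, had 147 counts in sum with siPRMT6-2 and 175 with siPRMT6-1, against 242 with siNC. PSMB5 had 25, 27 and 28 counts, PSMB6 had 21, 21 and 17, and PSMB7, which shares exon bases with an opposite-strand gene, had 101, 127 and 197 in siPRMT6-2, siPRMT6-1 and siNC. The ratio of PSMB7 to siNC was 0.599 for siPRMT6-2 (0.467 to 0.766) and 0.671 for siPRMT6-1 (0.532 to 0.843). For PSME3, a subunit gene of another proteasome activator, which had 25, 30 and 50 counts, it was 0.584 for siPRMT6-2 (0.346 to 0.963) and 0.624 for siPRMT6-1 (0.383 to 1.00).

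Of the genes that regulate class I transcription, NLRC5, the class I transactivator gene, had 20 counts with siPRMT6-2 and 0 with siPRMT6-1, against 0 with siNC, at least 7.79-fold higher with siPRMT6-2 than with siNC over the floor, with a 95% lower limit of 5.77. IRF1, an interferon-induced transcription factor gene named here after its values were seen, had 18 counts with siPRMT6-2 and 6 with siPRMT6-1, against 2 with siNC. Its ratio to siNC was 10.5 with siPRMT6-2 (2.52 to 93.5) and 3.12 with siPRMT6-1 (0.558 to 31.6). For the X-box and Y-box factor genes RFXANK and NFYC, and for CREB1, the intervals of the ratio to siNC contained 1 with both siRNAs. RFXANK and NFYC share exon bases with opposite-strand genes. The other 4 genes of that list, RFX5, RFXAP, NFYA and NFYB, had 9 counts or fewer in every library.

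**Figure D4:**
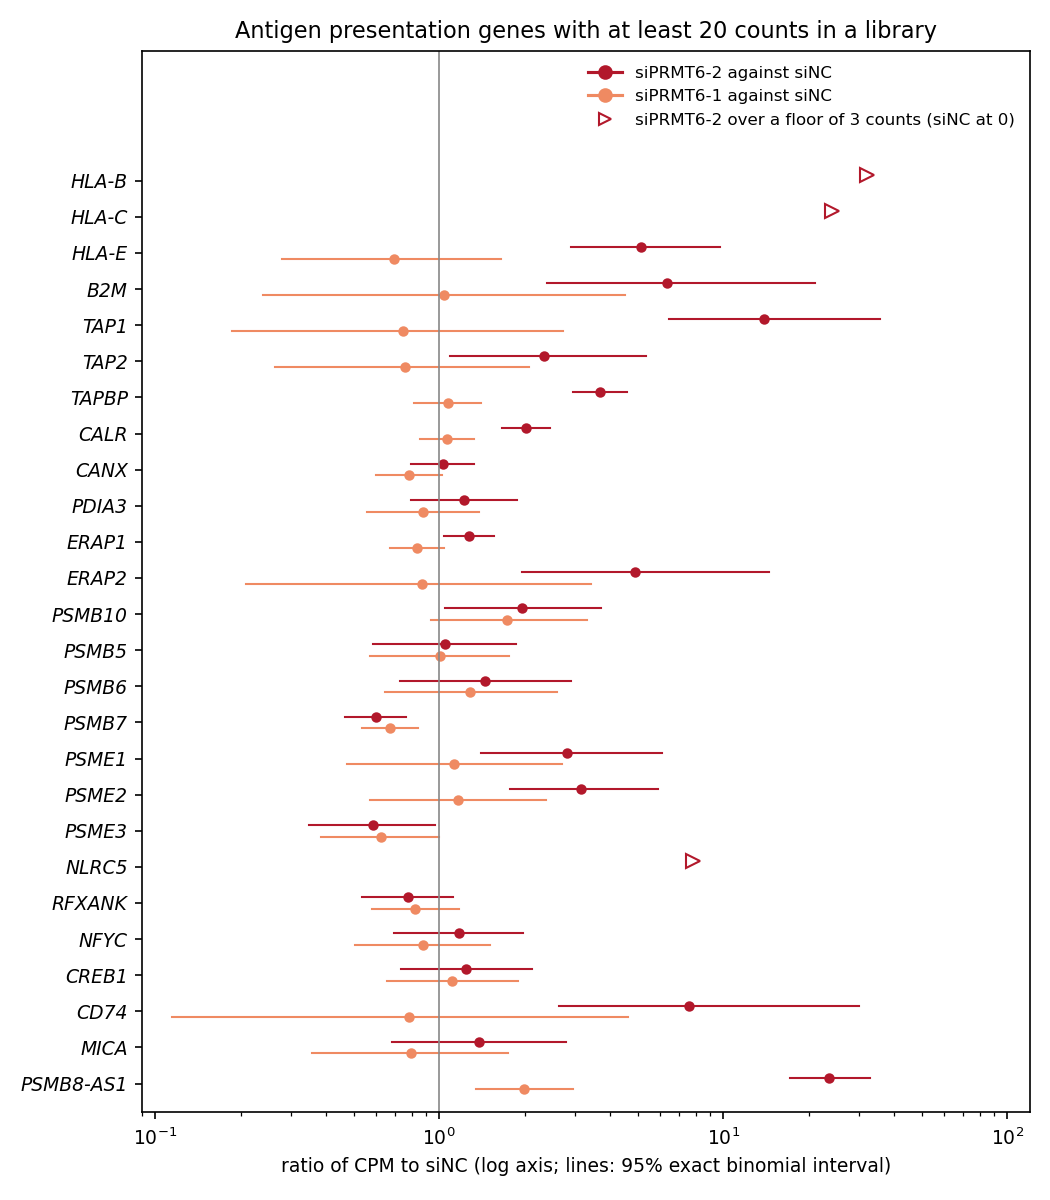
Ratio of CPM to siNC, on a log axis, for the 26 antigen presentation genes with at least 20 counts in a library, with siPRMT6-2 drawn above siPRMT6-1 for each gene. Lines are exact binomial 95% intervals, and open triangles are folds over the floor of 3 counts for genes at 0 in siNC. With siPRMT6-2 the ratios run from 0.584 for PSME3 to 23.5 for PSMB8-AS1, and HLA-B, HLA-C and NLRC5 appear as triangles.

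HELZ2, USP18, CCL3L1 and C7orf49 were among the 5 genes whose pair of log2 fold changes lay nearest to that of the summed list, of 3709 genes with at least 50 counts over the 3 libraries. The measure was the Euclidean distance over 2 fold changes that share the siNC library, from 3 libraries in all. Fold changes of the sum had no prior count, and those of single genes had a prior count of 2. PSMB8-AS1 held 844 of the 1179 summed counts in siPRMT6-2. Without it the siPRMT6-1 ratio of the sum was 0.855 in place of 1.53. Which genes lie nearest to the list without PSMB8-AS1 was not tested. HELZ2, a helicase gene, had 273 counts with siPRMT6-2 and 23 with siPRMT6-1, against 15 with siNC, at a distance of 0.0708. The other 3 lay at 0.739 to 0.891. USP18, which encodes the protease that removes ISG15, had 58, 1 and 0 counts, and C7orf49, which shares exon bases with TMEM140 on the opposite strand, had 145, 23 and 14. CCL3L1, a chemokine gene with near-identical copies, had 50, 0 and 0 counts.

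Markers of leukocytes and antigen-presenting cells, which carry much class I, had 60 counts with siPRMT6-2 and 22 with siPRMT6-1, against 18 with siNC. Of the 11 markers, 7 were at 0 in all 3 libraries, among them PTPRC, CD14 and CD3E. CD68, a lysosomal gene also expressed outside leukocytes, held 56, 19 and 17 of those counts. Of 6 fibroblast markers, 4 were at 0 in all 3 libraries. COL1A1 had 370, 354 and 515 counts and PDGFRB had 2, 6 and 16 in siPRMT6-2, siPRMT6-1 and siNC. Of 5 endothelial markers, 2 were at 0 in all 3 libraries. In the same order PECAM1 had 5, 16 and 19 counts, CLDN5 had 9, 9 and 7, and VWF had 1, 2 and 0.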

How the data were processed

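Total RNA of HEC1B cells was measured in 3 libraries at 48 h. Per the labels' protocols, libraries were made with a stranded total RNA kit. The submitters' processing notes name STAR 2.7.8a, featureCounts 2.0.10 and hg38, and the file headers give featureCounts 2.0.1 with strand setting 1, pairs counted, and reads in several overlapping genes added to each. The aligned files are marked in their names as UMI-deduplicated. The authors deposited unnormalized counts, 1 whole number per gene name and library.

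Column names were matched to libraries through the labels, which call siPRMT6-1 si2 and siPRMT6-2 si3. From the counts, edgeR 4.0.16 in R 4.3.3 (TMM, filterByExpr with a minimum count of 10 and a minimum total of 15) tested both knockdown libraries against siNC with its quasi-likelihood F-test, two-sided, at an adjusted p under 0.05. The fit has 1 residual degree of freedom, the gap between the siRNAs, and assumes that the lone control varies like the knockdown libraries. Its p-values thus reflect no more than the spread of these libraries, which may be technical. DESeq2 1.42.0 was an alternative. Log2 fold changes per siRNA use a prior count of 2 and compare single libraries. Totals of 362080 to 410916 counts limit the precision. The members and the gene lists were chosen with earlier results of these data known. Named are the members, their opposite-strand partners, listed pathway genes with at least 20 counts in a library, and the nearest genes, and 1 gene is not reported here. No protein sequences were used here.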

Additional observations from a re-analysis of the deposited data

How the results depend on the processing

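The edgeR quasi-likelihood test called 0 genes with RLE size factors, with total counts only, with no filter on low counts and after removal of genes with an opposite-strand exon partner, and DESeq2 called 0. The earlier form of the fit called 32, and the cause was not tested. With siPRMT6-2, 6 members had a fold of at least 2 under every scaling and prior count tried. With siPRMT6-1 the number was 0, and 1 with total counts only and 1 with a prior count of 0.5, PSMB8-AS1 in the first case and HLA-C, with 1 count, in the second. Without PSMB8-AS1 the ratio of summed counts was 14.0 for siPRMT6-2 against siNC, 16.4 for siPRMT6-2 against siPRMT6-1 and 0.855 for siPRMT6-1 against siNC (0.470 to 1.54). Without the genes that have an opposite-strand partner these ratios were 14.3, 17.1 and 0.833 (0.403 to 1.69). For siPRMT6-1 against siNC both ratios fell below 1, with intervals that contain 1, so no difference was detectable. Both changes follow from leaving PSMB8-AS1 out of the sum. The mean ratio over both knockdown libraries was 10.6, and leaving out either of them gave 1.53 to 19.7, so the siPRMT6-2 library decides it. Of 116 values of single members under other settings, 113 were counted as unchanged and 3, all with a prior count of 5, were not. Unchanged means within the counting interval. Where both counts were 0 and no interval exists, it means a shift under 1 log2 unit. PSMB8 with siPRMT6-1 was such a case, at 0.95 in place of 0 after PSMB8-AS1 was added. Against a library at 0 the interval has no upper limit, so no upward shift could count as a change there. HLA-B with siPRMT6-2 against siNC was thus counted as unchanged at 7.50 in place of 5.52 with a prior count of 0.5. Adding the counts of opposite-strand partners turned the direction of 2 values whose interval contains a ratio of 1: the log2 fold change of TAP1 with siPRMT6-1 was then 0.83 in place of -0.32, by the addition of PSMB8-AS1, and that of HLA-F with siPRMT6-2 was -0.32 in place of 0.08. No paired analysis was possible because there was 1 control library and the labels give no pairing. Leaving out a knockdown library leaves 1 library against 1, which gives no count of called genes. With 3 counts as the floor, PSMB8, PSMB9 and HLA-F lie at the limit of detection.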

Other observations

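MHC class II genes were mostly not detected. Of 13 class II genes, 8 were at 0 in all 3 libraries. CD74, the invariant chain gene, had 26 counts with siPRMT6-2 and 3 with siPRMT6-1, against 4 with siNC, 7.60 times siNC with siPRMT6-2 (interval 2.64 to 29.96). HLA-DMB, which encodes a chain of the class II peptide exchanger and is named after its values were seen, had 0 counts with siPRMT6-2 and 1 with siPRMT6-1, against 7 with siNC, with an interval of 0 to 0.811 for the ratio of siPRMT6-2 to siNC. Of 9 class I-like genes, MICA, which encodes a ligand of a natural killer cell receptor, had 20, 13 and 17 counts in siPRMT6-2, siPRMT6-1 and siNC, with no difference detectable. Together the 9 had 33, 20 and 19 counts. Their ratio to siNC was 2.03 with siPRMT6-2 (1.12 to 3.78) and 1.10 with siPRMT6-1 (0.555 to 2.17). ULBP3, named after its values were seen, had 8, 4 and 1 of these counts.

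The other genes of the MHC region were not high as a group. The interval of chromosome 6 from HLA-F to PSMB9 holds 167 genes of the table, of which 56 besides the members were kept by the filter. With siPRMT6-2, 5 of these 56 (8.93%) had a fold of at least 2 above siNC, beside 8.16% of all tested genes, and 2 were lower. Among the 5, named after their values were seen, were TAP2, PBX2, TRIM39 and PPP1R18. TRIM39 had 13 counts with siPRMT6-2 and 4 with siPRMT6-1, against 4 with siNC, and was kept by the filter through siPRMT6-2 alone. It shares exon bases with an opposite-strand gene. PBX2, a homeobox gene, had 27 counts with siPRMT6-2 and 27 with siPRMT6-1, against 8 with siNC. The median log2 fold change of the 56 was -0.01 with siPRMT6-2 and -0.09 with siPRMT6-1.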
